A study of Mus musculus with 6 samples.

Results

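The genes described are those of intraflagellar transport (IFT) and of the BBSome with its regulators, picked out by a rule on gene symbols: the numbered Ift and Bbs genes and a list of named genes for further subunits, motor chains, GTPases and adaptors. They were chosen with earlier results of these data known. The rule found 43 genes among 55487 rows, and all 43 passed the filter of a mean of at least 10 normalized reads over the 6 libraries. RNA came from yellow fluorescent cells sorted from the subventricular zone, the neurogenic niche beside the lateral ventricles of the adult mouse brain. Every mouse carried the NestinCreERT2 driver and the R26;EYFP reporter on a background that mixed FVB/N, C57BL/6 and Sv/129. The heterozygous group was E2F1(+/-);E2F3(F/+) and the knockout group E2F1(-/-);E2F3(F/F), with 3 libraries each, called A, B and C after their titles. Both groups began tamoxifen by gavage at 6 to 10 weeks of age, at 200 mg/kg per day for 5 days, and tissue was taken 10 days later. Several mice were pooled per library to reach at least 200000 sorted cells, and the labels do not say whether the 3 libraries of a group came from separate pools. The Nestin promoter limits the reporter to stem cells and any other Nestin-expressing cells with their descendants, the E2f1 null allele is present in every cell, and both groups carry at least 1 altered allele of each gene.

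A cilium is built at its tip, and cells have no ribosomes inside it, so every part is carried there and back along the axoneme by trains of IFT proteins. Complex B trains move outward on kinesin-2 motors, complex A is needed for the return journey on the cytoplasmic dynein-2 motor and for admitting membrane proteins, and the BBSome rides the trains as an adaptor that moves membrane cargo out of the cilium. In the subventricular zone, stem cells bear a solitary primary cilium that receives hedgehog signals, whereas ependymal cells carry tufts of motile cilia, and both kinds depend on the same transport machinery.

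E2f1 stood at 1030 to 1388 normalized reads in heterozygous and 375 to 516 in knockout libraries, without overlap, and E2f3 did not separate the groups (205 to 293 against 231 to 324). Reads are counted over whole genes, so the E2f3 value does not check recombination. Library depth was 19798675 to 25982361 reads in genes. Of all genes tested, 7.23% were higher and 8.59% lower in knockout libraries. Summed levels of marker lists are given as ranges over the libraries, with no test. Neuroblast markers summed to 60774 to 97284 in heterozygous and 11536 to 14035 in knockout libraries, and proliferation markers to 17526 to 28015 and 2608 to 5023. Quiescent stem cell and astrocyte markers summed to 244194 to 367837 and 326679 to 540642, oligodendrocyte markers to 36694 to 56093 and 58035 to 72524, microglia markers to 1037 to 4225 and 1242 to 6998, and blood markers to 1179 to 3518 and 573 to 18395. In bulk samples, fewer cells of a type and less RNA per cell cannot be told apart.

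Many cilium genes are controlled by RFX transcription factors, which bind an inverted repeat called the X-box, so the start regions were searched for it. RefSeq promoters on GRCm38.p6 (250 bases before to 50 after each start) were found for 38 of the 43 genes. The X-box was searched as GTNNCC, then 0 to 3 bases, then NGNAAC, on both strands. It was present for 9 of the 38 genes (23.7%), against 5.94% of 27025 genes with a promoter of the same length. The 9 genes were Ift22, Ift57, Ift74, Ttc26, Ttc30a2, Lztfl1, Bbs1, Bbs4 and Bbs7. A match is a description of these letters, not a bound site. E2F sites, searched as TTTGGCGC, TTTCGCGC, TTTGCCGC or TTTCCCGC on both strands, occurred in 2 of the 38 promoters (5.26%), those of Arl3 and Ift27, against 2.60% of all genes. The sequences below are the matches that lie wholly before the RefSeq start, in 6 of the 9 genes. Those of Ift74, Bbs1 and Bbs4 and further matches of Lztfl1 lie across or after it and are not printed. They run 5′ to 3′ on the gene's own strand with the match in capitals. Longer windows stop before the gene's start in GENCODE M21, and the second Ift57 match and the Ttc26 match lie just inside the annotated gene and are given alone.
Ift57, chr16:49699044-49699232, plus strand: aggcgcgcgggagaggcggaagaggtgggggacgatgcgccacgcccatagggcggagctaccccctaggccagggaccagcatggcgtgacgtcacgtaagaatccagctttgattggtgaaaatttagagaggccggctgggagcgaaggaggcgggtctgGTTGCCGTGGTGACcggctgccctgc
Ift57, second match, chr16:49699234-49699246, plus strand: GTTGCCTGGTAAC
Ift22, chr5:136908067-136908120, plus strand: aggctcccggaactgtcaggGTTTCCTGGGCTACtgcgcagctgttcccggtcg
Ift22, second match, chr5:136908097-136908149, plus strand: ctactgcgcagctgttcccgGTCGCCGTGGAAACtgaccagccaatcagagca
Ttc26, chr6:38381491-38381504, plus strand: GTTGCCGTGGAAAC
Ttc30a2, chr2:75978180-75978223, minus strand: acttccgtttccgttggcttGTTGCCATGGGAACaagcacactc
Lztfl1, chr9:123717755-123717809, minus strand: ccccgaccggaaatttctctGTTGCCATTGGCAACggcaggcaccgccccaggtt
Bbs7, chr3:36613478-36613530, minus strand: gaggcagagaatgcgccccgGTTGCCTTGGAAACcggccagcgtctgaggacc

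Ift57 and Ift22, shown above, each held 2 matches before the RefSeq start, beginning 87 and 60 bases before it in Ift57 and 63 and 33 bases before it in Ift22. Both genes rose in knockout libraries, as described below. Among the genes with a promoter, the X-box was present for 2 of 8 that rose and for 7 of 30 that did not pass the test. The RFX factor gene Rfx2 rose from 819, 532 and 621 normalized reads in heterozygous A, B and C to 1844, 1782 and 1492 in knockout A, B and C (2.62-fold, limma adjusted p = 0.00497), and Rfx3 had 876 to 1263 and 1045 to 1718 reads (adjusted p = 0.270).

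The first question was whether transcripts of the transport machinery differed between knockout and heterozygous cells. Of the 43 genes 10 rose in knockout libraries (23.3%, against 7.23% of all genes tested) and 0 fell (against 8.59%), with limma and Benjamini-Hochberg adjustment over all 18227 genes at 0.05. The genes that rose were Ift57, Dync2li1, Arl6, Ift80, Wdr60, Ttc8, Wdr19, Ift22, Ift88 and Bbs2, by 1.54-fold to 2.12-fold. The median log2 difference of the 43 genes was 0.46, against 0.046 for all genes tested, and 38 of 43 had a positive value (88.4%, against 52.3% of all genes tested). Every knockout library stood above every heterozygous library for 18 genes (41.9%, against 18.5% of all genes tested) and below for 1, Ttc21b (against 20.2%). At an unadjusted p under 0.05, 18 genes were higher and 0 lower (against 16.9% and 16.5% of all genes tested). edgeR on the recovered reads called 12 higher and 0 lower, adding Cluap1 and Wdr34 to the same 10, where it called 7.78% of all genes higher and 8.25% lower. The authors' deposited table called 14 of the 43 higher and 0 lower, where it called 7.44% of 31628 genes higher and 6.83% lower. The number of calls changed with the libraries used. With 1 library left out, the number that rose was 1, 0 and 1 without heterozygous A, B and C, and 2, 0 and 14 without knockout A, B and C. The median stayed between 0.34 and 0.57 in these fits.

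**Figure D1:**
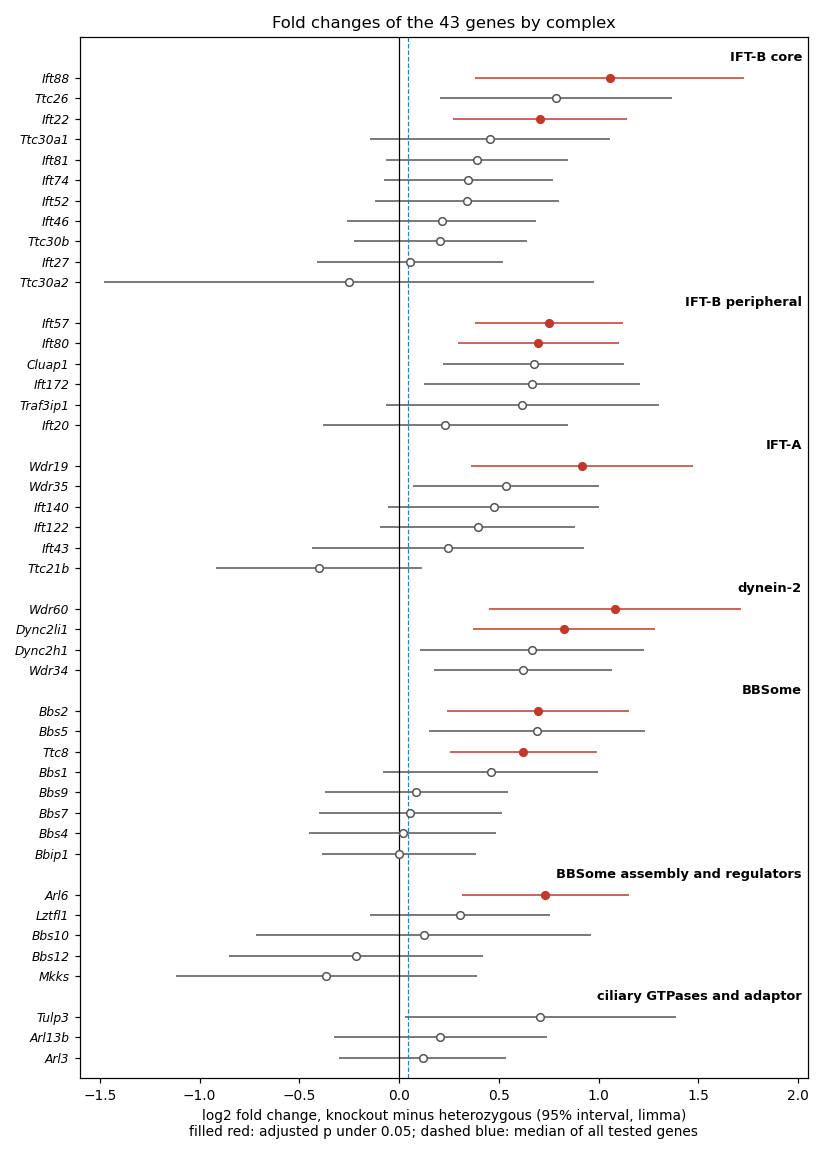
Log2 fold change (knockout minus heterozygous, x axis) of each of the 43 genes, grouped by complex, with the 95% interval from limma. Filled red points are the 10 genes at adjusted p under 0.05, and all 10 lie to the right of 0. The dashed line is the median of all genes tested, 0.046.

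The core of complex B, the rigid spine of the outward train, was examined first. Of its 11 genes 2 rose, and the median log2 difference was 0.35. For this and each of the other groups below, the share of all genes tested that rose was 7.23%. The 7 groups held 3 to 11 genes, and whether a group's count differs from that share was not tested. Ift88 (ENSMUSG00000040040, GRCm38 chromosome 14, 57424062 to 57517936, plus strand) encodes a scaffold subunit without which cilia do not form. It was at 542, 508 and 390 normalized reads in heterozygous A, B and C and at 1321, 1167 and 627 in knockout A, B and C. The groups did not overlap, but knockout C lay much nearer to the heterozygous libraries than A and B did. The log2 change was 1.06 ± 0.30 (SE, n = 3 per group, limma adjusted p = 0.0433), a 2.08-fold increase. Ift22 (ENSMUSG00000007987, chromosome 5, 136908150 to 136915404, plus strand) encodes a Rab-like small GTPase of the train. Its values were 1836, 1762 and 1834 in heterozygous and 3521, 3110 and 2361 in knockout libraries. The heterozygous libraries were nearly equal and the knockout libraries spread widely above them, with a 1.63-fold increase (log2 0.71 ± 0.19, adjusted p = 0.0384).

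The other 9 core genes did not pass the test. Ttc26, the subunit also called IFT56, had 486, 338 and 394 reads in heterozygous and 867, 720 and 534 in knockout libraries (log2 0.79 ± 0.26, adjusted p = 0.0662), and its groups did not overlap either. Ift81 and Ift74, coiled-coil partners that together bind tubulin cargo, had log2 differences of 0.39 and 0.35. For Ift52 and Ift46, which join Ift88 in the core, they were 0.34 and 0.21. Ift27, a further Rab-like GTPase that couples trains to BBSome exit, was at 0.054 with a 95% interval from -0.41 to 0.52. Ttc30a1, Ttc30a2 and Ttc30b encode near-identical IFT70 subunits whose reads the authors' counting could split or drop, so their log2 differences of 0.46, -0.25 and 0.21 are uncertain. Ttc30a2 was also the lowest of all 43 genes, at 17.2 to 31.4 reads. Within the core the members thus covered the range from 1.06 to -0.25.

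The outer, or peripheral, part of complex B carries the contacts with kinesin and cargo, and its 6 genes had a median log2 difference of 0.67. Here 2 rose and all 6 values were positive. Ift57 (ENSMUSG00000032965, chromosome 16, 49699233 to 49765126, plus strand), partner of Ift20, had the smallest p of the 43 genes. It was at 1436, 1422 and 1573 reads in heterozygous and 2535, 2402 and 2515 in knockout libraries. Both groups were tight and far apart, with a 1.68-fold increase (log2 0.75 ± 0.17, adjusted p = 0.0188). Ift80 (ENSMUSG00000027778, chromosome 3, 68892499 to 69004570, minus strand), a WD-repeat subunit linked in people to skeletal ciliopathy, stood at 1086, 951 and 914 reads and then at 1594, 1707 and 1481. All 3 knockout libraries were alike and clear of the heterozygous ones (1.62-fold, log2 0.70 ± 0.18, adjusted p = 0.0320).

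Cluap1, the IFT38 subunit, also separated the groups, with 736, 815 and 764 against 1488, 1208 and 1039 reads, but missed the threshold (log2 0.68 ± 0.20, adjusted p = 0.0508). Its exons overlap those of Gm20695 on the same strand over 22.4% of their bases, so its count is uncertain. Ift172, the largest subunit of complex B, had 1306, 779 and 933 against 1608, 1833 and 1288 reads, with heterozygous A above knockout C (log2 0.67 ± 0.24, adjusted p = 0.0871). Traf3ip1, the IFT54 subunit, was at 265, 229 and 300 against 591, 382 and 293 reads (log2 0.62 ± 0.30, adjusted p = 0.186), and only knockout A and B lay above the heterozygous range. Ift20, which also works at the Golgi, showed the widest knockout spread of the 6 peripheral genes, 2691, 1842 and 1292 reads against 1422, 1936 and 1437, and its difference was within that spread (log2 0.23 ± 0.27, adjusted p = 0.584).

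Complex A is the smaller complex, built for the return journey, and 1 of its 6 genes rose. The median log2 difference was 0.43. Wdr19 (ENSMUSG00000037890, chromosome 5, 65199696 to 65260415, plus strand), its IFT144 core subunit, was at 1018, 567 and 777 reads in heterozygous and 1410, 1692 and 1268 in knockout libraries. Heterozygous A was the highest of its group, and even so it lay under every knockout library (1.89-fold, log2 0.92 ± 0.25, adjusted p = 0.0365). Wdr35, the IFT121 subunit, had 2281, 1541 and 1872 against 2532, 3235 and 2460 reads and missed the threshold (log2 0.54 ± 0.21, adjusted p = 0.105). Ift140 and Ift122, the other core subunits, had log2 differences of 0.47 and 0.39 (adjusted p = 0.190 and 0.232). In both genes knockout C was the highest library and heterozygous A lay above knockout A.

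Ttc21b, the peripheral IFT139 subunit, went the other way from the rest of complex A, at 390, 500 and 415 reads in heterozygous and 309, 337 and 336 in knockout libraries. It was the only gene of the 43 whose knockout libraries all lay below the heterozygous ones, but the difference did not pass the test (log2 -0.40 ± 0.23, adjusted p = 0.246). Ift43, a small peripheral subunit, had 1243, 1644 and 1259 against 2470, 1706 and 1015 reads. Its knockout libraries spanned the whole heterozygous range (log2 0.24 ± 0.30, adjusted p = 0.606).

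Dynein-2, the motor of the return journey, had the highest median among the 7 groups, a log2 difference of 0.75, and 2 of its 4 genes rose. Wdr60 (ENSMUSG00000042050, chromosome 12, 116206262 to 116263022, minus strand), an intermediate chain that holds the motor's light chains, was at 714, 680 and 807 reads in heterozygous and 2182, 1718 and 996 in knockout libraries. Its 2.12-fold increase was the highest of the 43 genes (log2 1.08 ± 0.28, adjusted p = 0.0326). Knockout A held more than knockout C by a wide margin, as for Ift88. Dync2li1 (ENSMUSG00000024253, chromosome 17, 84626496 to 84655588, plus strand), the light intermediate chain that stabilizes the motor, had 1128, 1287 and 1172 against 2429, 2354 and 1663 reads (1.77-fold, log2 0.83 ± 0.20, adjusted p = 0.0269). Here too knockout C was the lowest of its group and still above all heterozygous libraries.

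Wdr34, the other intermediate chain, separated the groups at 1345, 1730 and 1477 against 2831, 2185 and 2028 reads without passing the test (log2 0.62 ± 0.20, adjusted p = 0.0618). Dync2h1, the heavy chain that generates force, had 2068, 1052 and 1326 against 2400, 2347 and 2047 reads (log2 0.67 ± 0.25, adjusted p = 0.0976). Heterozygous A, at 2068 reads, was the library that made its groups overlap. All 4 chains had the knockout libraries in the order A, B, C from high to low.

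**Figure D2:**
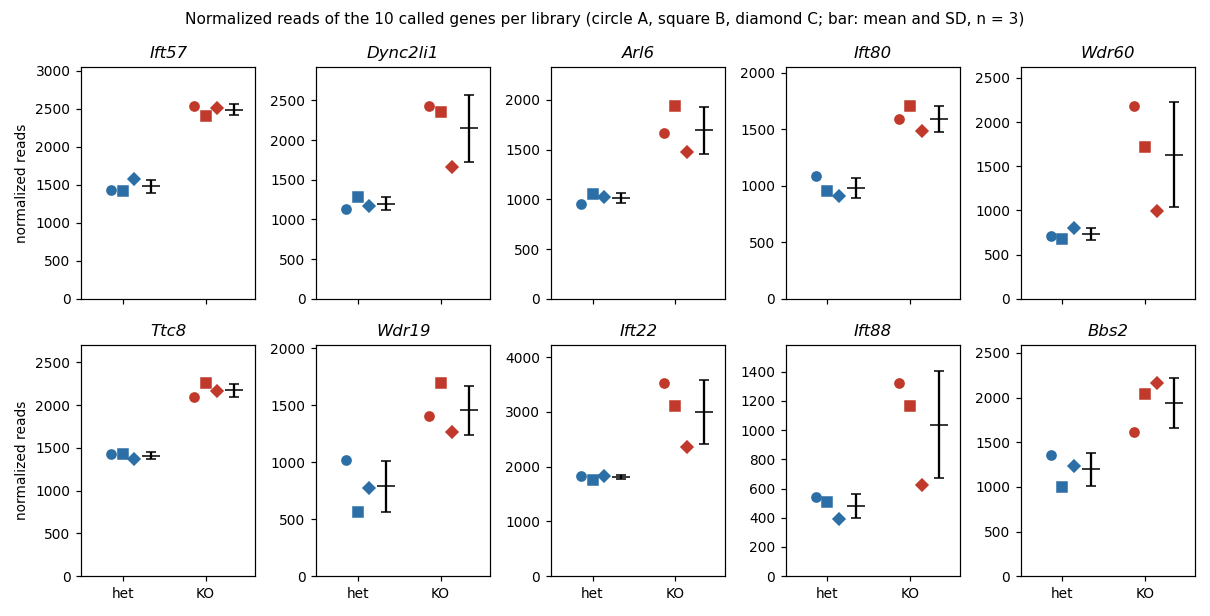
Normalized reads (y axis, from 0) of the 10 genes that rose, in each heterozygous (blue) and knockout (red) library, with the group mean and SD (n = 3). No knockout point lies at or below a heterozygous point in any panel. Knockout C is close to the heterozygous range for Wdr60, Ift88, Ift22, Wdr19 and Dync2li1 but not for Ift57 or Ttc8.

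The BBSome consists of 8 subunits, and 2 of its genes rose. These were Ttc8 and Bbs2, and the median log2 difference of the 8 was 0.27. Ttc8 (ENSMUSG00000021013, chromosome 12, 98920574 to 98983238, plus strand), the BBS8 subunit, was at 1433, 1432 and 1366 reads in heterozygous and 2099, 2254 and 2167 in knockout libraries. As for Ift57, both groups were tight (1.54-fold, log2 0.62 ± 0.16, adjusted p = 0.0342). Bbs2 (ENSMUSG00000031755, chromosome 8, 94067954 to 94098928, minus strand), a propeller subunit that pairs with Bbs7, had 1361, 997 and 1235 against 1620, 2043 and 2159 reads (1.62-fold, log2 0.70 ± 0.20, adjusted p = 0.0466). Its order among knockout libraries was the opposite of that of Wdr60, with C the highest and A the lowest.

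Bbs5, which binds membrane lipids, had 379, 303 and 330 against 585, 624 and 437 reads (log2 0.69 ± 0.24, adjusted p = 0.0791), and Bbs1, which binds the GTPase Arl6, had 552, 479 and 346 against 579, 669 and 616 (log2 0.46 ± 0.24, adjusted p = 0.209). Neither passed the test, although the groups did not overlap for either gene. For Bbs9, Bbs7, Bbs4 and Bbip1 the log2 differences were 0.086, 0.056, 0.017 and -0.0014, with 95% intervals of -0.37 to 0.55, -0.40 to 0.51, -0.45 to 0.49 and -0.39 to 0.39. The upper ends of these 4 intervals lie below the 0.62 of Ttc8, but its own 95% interval, 0.25 to 0.99, overlaps all 4. The difference between subunits was not tested.

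Of the 5 genes that assemble or regulate the BBSome 1 rose. Arl6 (ENSMUSG00000022722, chromosome 16, 59612949 to 59639391, minus strand), the GTPase that recruits the BBSome to membranes, was at 954, 1057 and 1026 reads in heterozygous and 1665, 1939 and 1476 in knockout libraries. The groups were clearly apart (1.66-fold, log2 0.73 ± 0.19, adjusted p = 0.0298). Lztfl1, which restrains BBSome entry into cilia, had log2 0.31 ± 0.20 (adjusted p = 0.310) with knockout libraries all higher, at 1161, 967 and 832 reads against 797, 759 and 814. The chaperonin-like genes Mkks, Bbs12 and Bbs10, whose products fold BBSome subunits, had log2 differences of -0.37, -0.21 and 0.12, and their groups overlapped. Mkks shares 29.3% of its exon bases with a further annotated gene on the same strand, so its count is uncertain.

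Of the 2 ciliary GTPases and the adaptor Tulp3, 0 of 3 genes passed, in limma as in edgeR. At an unadjusted p under 0.05 stood 1 of them, Tulp3, which hands membrane receptors to complex A, at 324, 306 and 478 against 805, 619 and 416 reads (log2 0.71 ± 0.30, adjusted p = 0.135). Knockout C lay within the heterozygous range. Arl13b, a GTPase of the ciliary membrane that activates Arl3, and Arl3, which releases lipid-anchored cargo, had log2 differences of 0.21 ± 0.24 and 0.12 ± 0.19.

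Knockout libraries did not contribute equally. Across the 43 genes the median ratio to the heterozygous mean was 1.49 in knockout A, 1.44 in B and 1.13 in C, against 0.993, 0.986 and 0.986 over all genes tested. Knockout C was the lowest of its group for 30 of the 43 genes. The full order A, B, C held for 21 (48.8%, against 26.0% of all genes tested), including 4 of the 10 that rose: Wdr60, Dync2li1, Ift88 and Ift22. Markers of ependymal cells, whose many cilia use the same machinery, followed that order in 13 of 13 tested genes, and 8 of the 13 rose. Their summed level was 14330 to 16885 in heterozygous libraries and, from A to C, 85260, 52375 and 20974 in the knockout libraries. Foxj1, the regulator of motile cilia, was at 842, 693 and 866 against 5293, 3769 and 1725 reads (4.08-fold, adjusted p = 0.00835). Mcidas, which starts the multiciliated programme, was at 0 in all heterozygous libraries and at 0 to 8.01 in knockout libraries. That order was not particular to ependymal markers. It also held for 8 of 9 endothelial and mural, 5 of 6 microglia and 3 of 3 blood genes. Endothelial and mural markers summed to 9874 to 17395 in heterozygous libraries and to 40882, 27963 and 12650 in knockout A, B and C. In the same 3 knockout libraries microglia markers summed to 6998, 1431 and 1242 and blood markers to 18395, 4914 and 573. The list of 8 regulators of multiciliated cells shares Foxj1 and Mcidas with the ependymal list. Its other 6 genes, Rfx2 among them, summed to 2186 to 2779 in heterozygous libraries and to 5511, 5472 and 4068 from knockout A to C. The part of these cell types in the transport genes was not tested.

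The other 6 genes that rose did not have that order, and they did not share another. Knockout C was the lowest knockout library for Wdr19, Ift80 and Arl6. It was the middle for Ift57 and Ttc8 and the highest for Bbs2. In knockout C the ependymal sum was 1.37 times its heterozygous mean, while the quiescent stem cell and astrocyte sum was 1.80 times its own. In the same library Bbs2 stood at 1.80, Ift57 at 1.70, Wdr19 at 1.61, Ttc8 at 1.54, Ift80 at 1.51 and Arl6 at 1.46 times the heterozygous mean, and Dync2li1, Wdr60, Ift88 and Ift22 at 1.39, 1.36, 1.31 and 1.30. In knockout A the ependymal sum reached 5.58 and the quiescent stem cell and astrocyte sum 1.09 times the heterozygous mean, and the 10 genes ranged from 1.35 (Bbs2) to 2.97 (Wdr60). The part of ependymal or of quiescent stem cells and astrocytes in these ratios was not tested. Without knockout A, the library with the highest ependymal sum, the median log2 difference of the 43 genes was 0.45. Ift57 and Bbs2 were the 2 genes that passed. Knockout B stayed in that fit with an ependymal sum of 3.43 times the heterozygous mean. The fit was therefore no test of the part of ependymal cells.

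**Figure D3:**
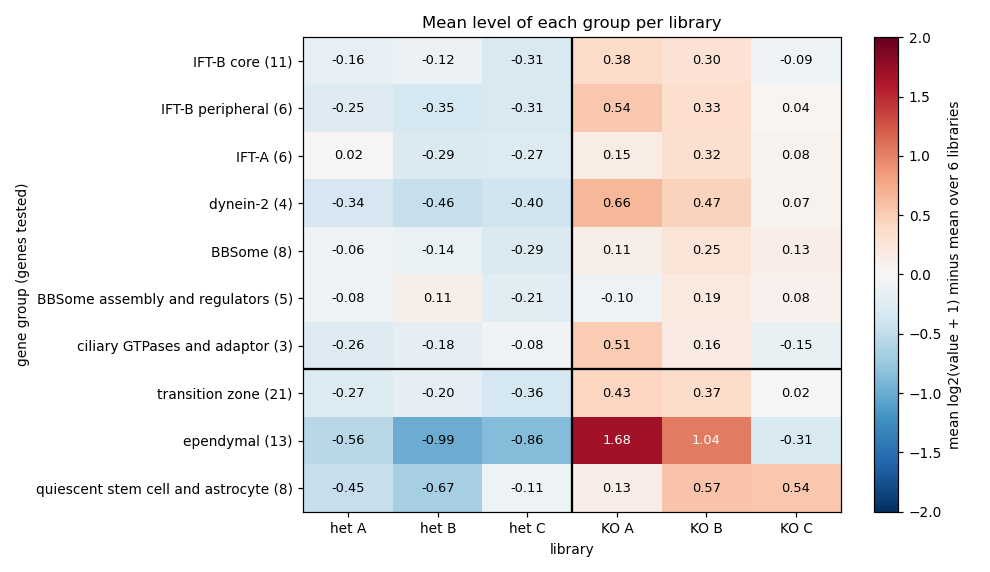
Mean log2(value + 1) of each gene group in each library (columns), relative to its mean over the 6 libraries, with the number of genes tested in brackets. Dynein-2 is at 0.66, 0.47 and 0.07 in knockout A, B and C, the BBSome at 0.11, 0.25 and 0.13, ependymal markers at 1.68, 1.04 and -0.31, and quiescent and astrocyte markers at 0.13, 0.57 and 0.54.

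**Figure D4:**
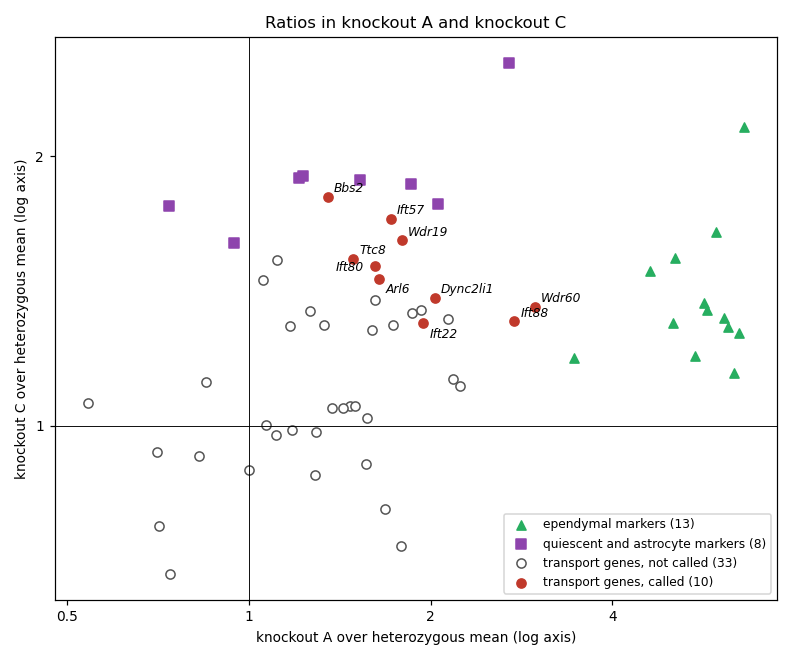
Ratio to the heterozygous mean in knockout A (x axis, log scale) and knockout C (y axis, log scale) for transport genes that rose (red), transport genes that did not pass (open), ependymal markers (green) and quiescent and astrocyte markers (purple). Ependymal markers lie far right, at 3.45 to 6.61 in knockout A, while the red points run from Bbs2 (1.35 in A, 1.80 in C) to Wdr60 (2.97 in A, 1.36 in C).

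The libraries also differed by transcript length. Over 18212 genes, the median deviation of long transcripts (at least 6032 bases) minus that of short ones (at most 909 bases) was 0.34, -0.20 and 0.02 in heterozygous A, B and C and -0.36, 0.00 and 0.19 in knockout A, B and C on the log2 scale. The transport genes differed the same way between heterozygous A and B. The 10 longest of them, such as Dync2h1, Wdr19 and Ift140, had a mean deviation of 0.02 in heterozygous A and -0.37 in heterozygous B, and the 10 shortest, such as Ift43, Arl6 and Ift20, had -0.31 and -0.07. In knockout A, B and C the 10 longest had 0.26, 0.34 and 0.09, and the 10 shortest had 0.46, 0.24 and -0.07. The part of transcript length in the order A, B, C of the transport genes was not tested. With the length trend of each library removed, an alternative chosen after seeing the data, 11 genes rose (against 8.02% of all genes tested) and 0 fell (against 10.8%). Of these, 9 were among the same 10, Cluap1 and Wdr34 were added, and Arl6 no longer passed.

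Levels were compared between genes per kilobase of the transcript with the longest coding sequence, as a mean over the 6 libraries. Reads are counted over whole genes, so a gene with many exon bases outside that transcript, such as Arl6, can be overstated. The ranking is therefore uncertain. Arl3 was the highest at 2938 normalized reads per kilobase, followed by Ift43 (1988), Ift27 (1888), Arl6 (1668) and Ift20 (1551), all encoded by short transcripts. At the low end, Ttc30a2 had 9.53, Ttc21b 85.3 and Bbs12 92.1. Within dynein-2 the light intermediate chain Dync2li1 was at 1235, Wdr34 at 1065, Wdr60 at 318 and the heavy chain Dync2h1 at 143. The BBSome ranged from Bbip1 at 1008 and Ttc8 at 789 to Bbs1 at 96.4.

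Related cilium genes gave the surroundings of these results. Transition zone genes, which build the gate at the base of the cilium, were higher for 8 of 21 with 0 lower in limma (median 0.76). Of all genes tested, limma called 7.23% higher and 8.59% lower. Tctn2 rose 2.10-fold from 1457, 1286 and 1222 to 3150, 2896 and 2315 reads (adjusted p = 0.00867), and Tmem231 rose 1.89-fold (adjusted p = 0.0180). At an unadjusted p under 0.05, where 16.9% of all genes tested were higher and 16.5% lower, 13 transition zone genes were higher and 0 lower. edgeR called 9 transition zone genes higher and 0 lower, where it called 7.78% of all genes higher and 8.25% lower. Of 6 dynein light chain genes 3 rose: Dynlt3 (1.62-fold, adjusted p = 0.0439), the dynein-2 light chain gene Tctex1d2 (1.77-fold, 0.0452) and Dynlrb2 (3.05-fold, 0.0470). Dynlrb2 also had the knockout libraries in the order A, B, C, at 6543, 4224 and 1357 reads.

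Kinesin-2 is the outward motor. Of its 5 genes 0 rose in limma or edgeR (1 at an unadjusted p under 0.05) and 1 fell, against 7.23% and 8.59% of all genes tested. Kif3c, an alternative motor subunit abundant in neurons, fell 2.14-fold, from 1740, 1617 and 1158 to 668, 666 and 744 reads (adjusted p = 0.0122). Kif3a and Kifap3, the shared subunits of the ciliary motor, had log2 differences of -0.16 and -0.11 (adjusted p = 0.540 and 0.716), and Kif3b and Kif17 had 0.65 ± 0.29 and 0.66 ± 0.47 (adjusted p = 0.148 and 0.353). The difference between kinesin-2 and the transport genes was not tested. Among 17 genes of lipid-anchored cargo and membrane traffic 0 rose in limma, in edgeR or at an unadjusted p under 0.05. In limma, which called 7.23% of all genes tested higher and 8.59% lower, 2 of the 17 fell. These were Gpr161, a ciliary receptor that restrains hedgehog signalling (2.24-fold, adjusted p = 0.0219), and Rab3ip, the Rab8 activator also called Rabin8 (1.94-fold, 0.0458). Of 11 ciliary kinase, appendage and capping genes 1 rose and 1 fell, against 7.23% and 8.59% of all genes tested. Mak rose 3.27-fold (limma adjusted p = 0.0410) and its relative Cilk1 fell 1.62-fold (0.0358). Hspb11, the IFT25 partner of Ift27 that the naming rule did not take in, had a log2 difference of 0.37 ± 0.28 (adjusted p = 0.383).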

How the data were processed

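Reads of 6 libraries (SMART-Seq v4 and Nextera XT kits, per the labels' protocols) were aligned with HISAT2, counted with featureCounts (Subread) on GRCm38 and compared with DESeq2, per the submitters' processing notes; versions are not given there. The deposited signal per library is a read count per gene divided by 1 size factor, and the authors' mean is a signal on the same scale. The authors' log2 fold change, its standard error, p-value and adjusted p-value compare the genotypes, and the deposited Wald statistic and weight are scores. Dividing each library's values by the worth of 1 read gave whole reads for 100% of values (tolerance 0.001 reads), which were used as recovered reads. Strandedness of counting is not given in the sources used here, so exon overlaps on the opposite strand could also affect counts. On that strand 1700016D08Rik overlaps 16.1% of the exon bases of Cluap1, and Gm15518 overlaps 7.86% of those of Ift57.

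The main test was limma 3.58.1 (R 4.3.3) with a mean-variance trend on log2(value + 1), two-sided, genotype as the only term, for 18227 rows with a mean of at least 10, with Benjamini-Hochberg adjustment at 0.05 over all of them. A fold change is given on that log scale, which understates changes of low genes. edgeR 4.0.16 was run on the recovered reads. Scripts were tested on simulated data. The design named edgeR for raw counts and limma for normalized values, and the values were normalized. Places and transcript lengths are from GENCODE M21 (GRCm38), the length being that of the transcript with the longest coding sequence. Every member is named. Full values go to members that passed, up to 3 per group, or to the one with the smallest p, and to others with separated or overlapping groups worth showing, chosen after their values were seen. Related lists name up to 3 genes that passed (1 transition zone gene is not reported here), and Kif3a, Kif3b, Kif17, Kifap3 and Hspb11 were added. The members and all lists were chosen with earlier results of these data known. No pair of libraries matched within counting noise (lowest chi-square ratio to its degrees of freedom 46.9), so none was merged as 1 library deposited more than once; that does not show separate pools. The labels say that mice were pooled but not whether libraries of a genotype came from separate pools, so p-values measure only the spread between these libraries. Figures were drawn with matplotlib 3.10.9.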

Additional observations from a re-analysis of the deposited data

How the results depend on the processing

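The same 10 genes were among those called with pseudocounts of 0.5 (10 genes) and 4 (11), a minimum mean of 50 (12), and edgeR with TMM (12) or upper-quartile scaling (12). Without a filter 6 rose, at an adjusted p of 0.01 the count was 0, and with each library left out 0 to 14 did. Ift57 was called in 3 of those 6 fits, Wdr19 in 2, Ttc8 in 0 and the other 7 genes in 1 each. The replicate letters were also used as a replicate block, under which 2 genes rose (Wdr60 and Ift88), of 1105 over all genes. Deviations of same-letter libraries correlated at -0.07, 0.02 and -0.10 for A, B and C. With 3 libraries per group this cannot show whether a letter pairs libraries, and the labels do not say. The letters were treated as names in the main test. In no alternative did a member fall. Related cilium genes (12 higher, 4 lower) gave 7 and 2 without a filter, 5 and 2 under the replicate block, 1 and 0 at 0.01, 0 to 17 and 0 to 4 with a library left out, and 7 lower with the length trend removed. Over all genes (1318 higher, 1565 lower) the counts were 115 and 503 at 0.01, and 109 to 1956 and 469 to 2063 with a library left out. Upper-quartile scaling in edgeR turned the balance to 1572 higher and 1406 lower, and shifted the median of all genes to 0.13.

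Some differences near 0 changed sign. With a library left out, Bbs9 ranged from -0.048 to 0.22, Bbs7 from -0.079 to 0.16, Bbs4 from -0.10 to 0.17, Bbip1 from -0.069 to 0.056, Bbs10 from -0.088 to 0.53, Ift43 from -0.059 to 0.58, Ift27 from -0.10 to 0.17, Ift20 from -0.036 to 0.49 and Arl13b from -0.012 to 0.38. Bbip1 was 0.031 and 0.089 in edgeR with TMM and upper-quartile scaling. With the length trend removed Bbs4, Ift27 and Arl3 were -0.012, -0.087 and -0.040. None of these genes passed the test under those settings, and the cause was not tested.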
